A study of Homo sapiens with 8 samples.

Results

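The comparison of Taxol culture with the post-puromycin start asked which chromatin genes T1-160 cells could or could not spare while they grew in drug. Its members were all rows of the deposited sgRNA table that sets the Taxol libraries against the after-puromycin (AP) libraries, which cover 5 of the 8 samples of the series and 779 genes. T1-160 is a Taxol-resistant derivative of SUM159PT, a triple-negative breast cancer cell line, and the cells of every group carried Cas9 and the EPIKOL library. EPIKOL is a pooled lentiviral sgRNA library against chromatin regulators, with 10 sgRNAs for 775 of the genes, at least 4 for the others and 80 non-targeting sgRNAs. All groups were infected at a multiplicity of infection of 0.4 and 1000-fold representation and were selected for 4 days with puromycin at 5 µg/ml, to which verapamil was added at 20 µM, an inhibitor of the efflux pump ABCB1. The AP group (replicates 1 and 3) was collected at that point, and the Taxol group (replicates 1 to 3) after 16 population doublings in 160 nM Taxol. No Taxol dose is given for the AP group. The paper states that the resistant lines were kept in Taxol during routine culture. Whether Taxol was present up to or during the selection is not stated, so the AP cells cannot be taken as free of earlier exposure. A DMSO group (replicates 1 to 3), grown for the same number of doublings in vehicle, is used below for side-by-side values. The resistant cells are 1 derived line, and the labels do not state that its replicates were infected or cultured apart. No p-value here reaches beyond these samples, and the spread between them may be technical.

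In a pooled knockout screen each cell carries an sgRNA that cuts 1 gene, and the sgRNA itself is the barcode that is counted in genomic DNA. Cells that lose a gene they need divide less and their sgRNAs become scarcer, whereas cells that lose a gene that restrains them take a larger share of the pool. Taxol (paclitaxel) stabilises microtubules and blocks mitosis, and the comparison with the start of culture holds all selection over the culture, that by the drug and that by growth alone. Levels are given as gene means, the mean over the sgRNAs of a gene of log2(normalized count + 1), and a difference is the mean of the 3 Taxol libraries minus that of the 2 AP libraries on this log2 scale. Each difference is given with the SD between libraries of a group, pooled over both groups.

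The libraries differed in depth and evenness. The reads recovered from the normalized counts ran from 2045986 in Taxol 2 to 11771420 in Taxol 1, or 978 and 554 reads per sgRNA in AP 1 and AP 3 and 1499, 260 and 346 in Taxol 1 to 3, and none of the 7855 sgRNAs was at 0. The 10 most abundant sgRNAs held 1.53% and 2.73% of the AP libraries and 10.6%, 6.23% and 8.91% of the Taxol libraries, and the Gini coefficient, a measure of unevenness that is 0 when all sgRNAs are equally abundant, was 0.375 and 0.366 against 0.674, 0.487 and 0.582. Gene means lay about the AP mean with an SD across genes of 0.59 in Taxol 1, 0.34 in Taxol 2 and 0.47 in Taxol 3. Across sgRNAs AP 3 correlated more closely with Taxol 2 (Pearson r = 0.80, a description over sgRNAs) than with AP 1 (r = 0.75). The non-targeting sgRNAs, which cut no gene, stood at -0.11 and 0.26 relative to the median of the other sgRNAs in AP 1 and AP 3 and at 0.60, 0.51 and 0.63 in the Taxol libraries. All 3 Taxol values lay above both AP values, a mean difference of 0.51 (exact permutation test over the 5 libraries, two-sided p = 0.1, the smallest this design allows). The median gene differed by 0.20 on the deposited scaling, and centring each library on its non-targeting sgRNAs moved it by -0.53 and scaling to equal totals by -0.74, so differences are best read against that median. The part of unevenness in the gene results was not tested.

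**Figure D1:**
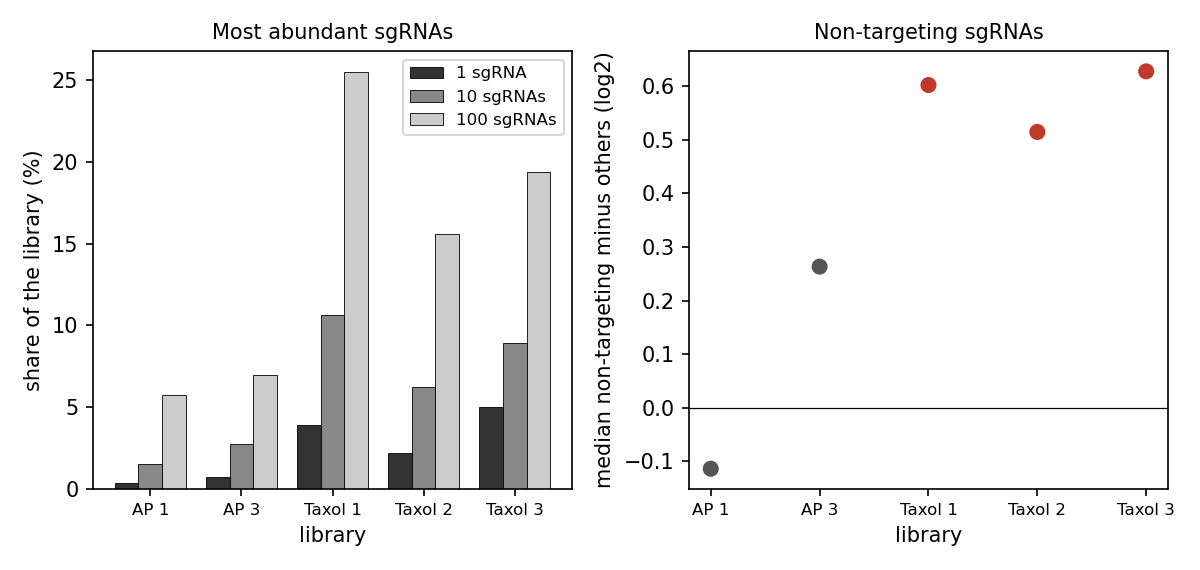
Left, share of each library (%) held by its 1, 10 and 100 most abundant sgRNAs. Right, median log2 level of the 80 non-targeting sgRNAs minus that of all other sgRNAs in each library. The top 10 sgRNAs held up to 2.73% of an AP library and at least 6.23% of a Taxol library, and the non-targeting sgRNAs stood highest, at 0.51 to 0.63, in the 3 Taxol libraries.

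Genes were ranked by robust rank aggregation (RRA), which asks whether the sgRNAs of a gene gather at an end of the ranking of all sgRNAs, with p-values adjusted by the Benjamini-Hochberg method over 779 genes. An RRA p takes the sgRNAs of a gene as its units. It does not measure the spread between libraries, which enters only through the ranking of the sgRNAs. At an adjusted p under 0.05, 36 genes (4.62%) were depleted in Taxol and 11 (1.41%) were enriched, against 103 (13.2%) and 66 (8.47%) at an unadjusted p under 0.05. Counts of called genes in the lists below are to be read beside 4.62% depleted and 1.41% enriched. The depleted genes differed by -0.92 to -0.12 (median -0.67) and the enriched genes by 0.90 to 1.78 (median 1.25). In 35 of the 36 depleted genes all Taxol libraries lay below both AP libraries, and in 11 of 11 enriched genes all lay above. Over all genes this separation was seen downwards in 113 (14.5%) and upwards in 252 (32.3%). The calls come from the same libraries, so the separation in called genes largely follows from the calling and is no separate support. Limma on the gene means, in which the library is the unit of error, called 1 gene higher (0.128%), USP22, and 0 lower (0%), with 132 genes higher (16.9%) and 49 lower (6.29%) at an unadjusted p under 0.05. The lowest adjusted limma p of a depleted gene was 0.0744. On single sgRNAs limma called 0 of 7855 at an adjusted p under 0.05, with 306 lower and 176 higher unadjusted. The RRA calls depended on the libraries: 2 depleted genes (RBBP7 and IMP3) and 1 enriched gene (USP22) were called without AP 3, 21 and 7 without AP 1, 23 and 3 without Taxol 1, 30 and 8 without Taxol 2, and 11 and 5 without Taxol 3. Without AP 1 or AP 3 the AP group is a single library, the spread comes from the Taxol libraries alone, and the lone library is assumed to vary like them. RBBP7 and USP22 were called in each of these 5 runs. Centring on non-targeting sgRNAs gave 34 depleted and 10 enriched genes and equal totals gave 25 and 11. Some calls described below were lost whichever Taxol library was left out. On the enriched side they were TADA3, ING2, TDRD7 and PHIP. On the depleted side they were RPS15A, IMP3, EED, SSRP1, PRMT1, WDR77, KAT8, KANSL3 and GATAD1. The enriched calls of KEAP1, CHD1 and MORF4L2 were lost both without Taxol 1 and without Taxol 3. So were the depleted calls of EXOSC6, EXOSC2, ELP4, PPP4C, RMI1 and SFPQ.

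**Figure D2:**
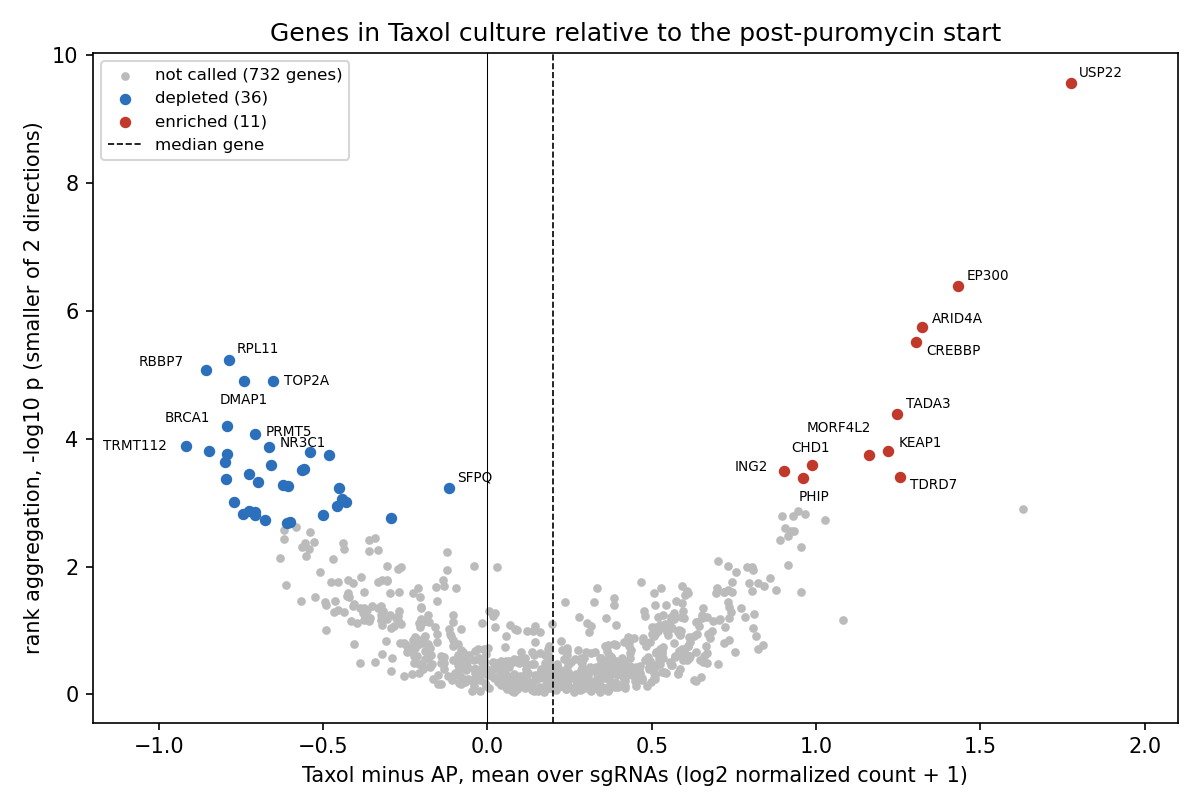
Each point is 1 of the 779 genes: x, Taxol minus AP difference of the gene mean (log2); y, -log10 of the smaller RRA p of the 2 directions. The 36 depleted genes (blue) lie left of 0 and the 11 enriched genes (red) at 0.90 or above, with USP22 farthest out, and the dashed line marks the median gene at 0.20.

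RBBP7 was lower by a similar amount whichever library was left out, from -0.92 to -0.80. RBBP7 and its close relative RBBP4 are WD-repeat proteins that hold histones H3 and H4 and serve as shared subunits of the SIN3 and NuRD deacetylase complexes and the PRC2 methyltransferase, RBBP4 also of the chromatin assembly factor CAF-1. For RBBP7 the gene mean was 8.37 and 8.49 in AP 1 and AP 3 and 7.52, 7.61 and 7.59 in Taxol 1 to 3. The 3 Taxol libraries lay within 0.09 of each other, and the difference was -0.86 ± 0.06 (RRA adjusted p = 0.00246, limma adjusted p = 0.0744), a level 1.81-fold lower. Of its 10 sgRNAs 9 were lower and the other stood out at 2.03. That sgRNA had 11946 normalized counts in Taxol 1 against 615 and 1004 in Taxol 2 and Taxol 3. It raised the Taxol 1 mean, so the closeness of the 3 Taxol means rests in part on this sgRNA. RBBP4 went from 8.50 and 8.42 to 7.51, 7.98 and 7.51 (-0.80 ± 0.22, RRA adjusted p = 0.0183), and all 10 of its sgRNAs were lower. In PRC2, which trimethylates H3K27, 3 of 11 measured members were depleted, against 4.62% of all genes. They were these 2 proteins and EED, the subunit that reads the mark (-0.46 ± 0.07, RRA adjusted p = 0.0325). The median of the 11 was 0.27, near the median gene, and the other 8 did not pass. In NuRD the 2 RBBP proteins were the depleted members of 14, and the list median was 0.59, and MTA1, a NuRD scaffold subunit, stood at 0.93 ± 0.27 without passing (RRA adjusted p = 0.107). Among 17 histone chaperones a further gene was depleted, SSRP1, a subunit of the FACT complex (-0.68 ± 0.21, RRA adjusted p = 0.0423), and the list median was 0.07.

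Ribosomal protein genes, which serve in the library as genes that most cells need, were lower as a list. Of 13 measured, 4 were depleted and 0 enriched, against 4.62% and 1.41% of all genes. All 13 differences were below 0 on the deposited scaling, as were 252 of all 779 genes. The list median was -0.42, or -0.62 relative to the median gene. RPL11, a protein of the large subunit, had gene means of 7.80 and 7.73 at the start and 6.70, 7.18 and 7.06 in Taxol (-0.79 ± 0.21, RRA adjusted p = 0.00246). RPS18, of the small subunit, fell from 8.50 in both AP libraries to 7.38, 7.79 and 7.77 (-0.85 ± 0.19, RRA adjusted p = 0.0118), although 3 of its 10 sgRNAs were not lower. Taxol 1 was the lowest library for both RPL11 and RPS18. RPS15A, also of the small subunit, was depleted by -0.71 ± 0.20 (RRA adjusted p = 0.0376), with all 10 sgRNAs lower.

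Among 8 genes of rRNA processing and the nucleolus 3 were depleted, against 4.62% of all genes, and the list median was -0.26. The other 5 did not pass and ran from -0.38 (NAT10) to 0.70 (RRP8), with all Taxol libraries above AP for RRP8. TRMT112, the partner that stabilises several methyltransferases including those of rRNA, tRNA and the translation factor ETF1, had the lowest difference of all genes: 8.34 and 8.13 in AP against 7.13, 7.83 and 6.99 in Taxol (-0.92 ± 0.38, RRA adjusted p = 0.0118). Taxol 2 stayed nearest to the start. Fibrillarin (FBL), which methylates the ribose of rRNA, went from 8.72 and 8.39 to 7.50, 7.92 and 7.86 (-0.80 ± 0.23, RRA adjusted p = 0.0137), with 9 of 10 sgRNAs lower and the other at 0.04. NPM1, an abundant nucleolar protein, differed by -0.74 ± 0.15 with all 10 sgRNAs lower (RRA adjusted p = 0.0384). IMP3, of the U3 particle that cuts rRNA and not in that list, was depleted by -0.44 ± 0.15 (RRA adjusted p = 0.0282). Of 9 subunits of the RNA exosome, the complex that trims and degrades RNA, 2 were depleted, against 4.62% of all genes. All 9 were below 0, as were 252 of all 779 genes, and the list median was -0.37. EXOSC6 differed by -0.73 ± 0.18 (RRA adjusted p = 0.0161) and EXOSC2 by -0.60 ± 0.34 (RRA adjusted p = 0.0446), and EXOSC4 stood at -0.51 ± 0.10 without passing. Of 7 splicing factors PRPF19, the ubiquitin ligase of the spliceosome, was depleted (-0.45 ± 0.22, RRA adjusted p = 0.0202), and the list median was -0.31. RAN and RCC1, which set up nuclear transport and spindle assembly, had a median of -0.38 and neither passed (RAN, -0.44 ± 0.15, RRA adjusted p = 0.0732). SFPQ, an RNA-binding splicing protein outside the list of splicing factors, was called with 5 sgRNAs lower and 5 higher. Its gene mean was 7.29 and 7.45 in AP and 7.10, 7.33 and 7.32 in Taxol, the groups overlapped, and the difference was -0.12 ± 0.12 (RRA adjusted p = 0.0202, limma adjusted p = 0.727), the 1 depleted gene of which this was so.

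Among the arginine methyltransferases and the partners of PRMT5, 3 of 10 genes were depleted, against 4.62% of all genes. The list median, 0.07, was near that of all genes. PRMT5 makes symmetric dimethylarginine on histones and splicing proteins and works in a complex with WDR77. For PRMT5 the gene mean was 8.25 and 8.07 in AP and 7.17, 8.01 and 7.18 in Taxol (-0.71 ± 0.40, RRA adjusted p = 0.0111), so Taxol 2 lay just under AP 3 while the other Taxol libraries lay well below. WDR77 was depleted by a like amount, from 8.84 and 8.40 to 7.65, 8.04 and 8.05 (-0.71 ± 0.26, RRA adjusted p = 0.0384). PRMT1, the main asymmetric arginine methyltransferase, stood at 8.03 in both AP libraries and at 6.93, 7.50 and 7.36 in Taxol, with all 10 sgRNAs lower (-0.77 ± 0.24, RRA adjusted p = 0.0296). CARM1, another asymmetric enzyme, was at -0.11 ± 0.16 with overlapping groups.

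Of 7 genes of homologous recombination, which copies a break from the sister chromatid, 3 were depleted, against 4.62% of all genes. The list median was -0.27. BRCA1, which promotes the resection of breaks and the search for the intact copy, went from 9.00 and 8.50 in AP to 7.85, 8.32 and 7.70 in Taxol (-0.79 ± 0.33, RRA adjusted p = 0.00993). RMI1, which helps the BLM helicase to undo recombination intermediates, differed by -0.61 ± 0.27 (RRA adjusted p = 0.046). For BRCA1 the Taxol libraries all lay below AP 3, the lower AP library. UBE2T, the ubiquitin-conjugating enzyme of the Fanconi anaemia pathway and not in that list, fell from 8.39 and 8.23 to 7.10, 7.77 and 7.68 (-0.79 ± 0.30, RRA adjusted p = 0.0118). In DNA break signalling 0 of 14 genes passed and among the PARP enzymes 0 of 4, with medians of 0.01 and 0.06. With 4.62% of all genes depleted, lists this small can hold no call. Those counts therefore cannot show that homologous recombination differed from these lists. TOP2A, the topoisomerase of dividing cells that separates chromosomes before mitosis, stood at 8.80 and 8.36 in AP and at 7.87, 8.04 and 7.86 in Taxol (-0.65 ± 0.20, RRA adjusted p = 0.00246). Its paralog TOP2B, present in dividing and resting cells alike, stood at 0.31 ± 0.12 without passing, or 0.11 above the median gene, which both other scalings move below 0 together with TOP2B. PPP4C, the catalytic subunit of a phosphatase that acts in repair and at centrosomes, was depleted by -0.73 ± 0.22 (RRA adjusted p = 0.0375).

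**Figure D3:**
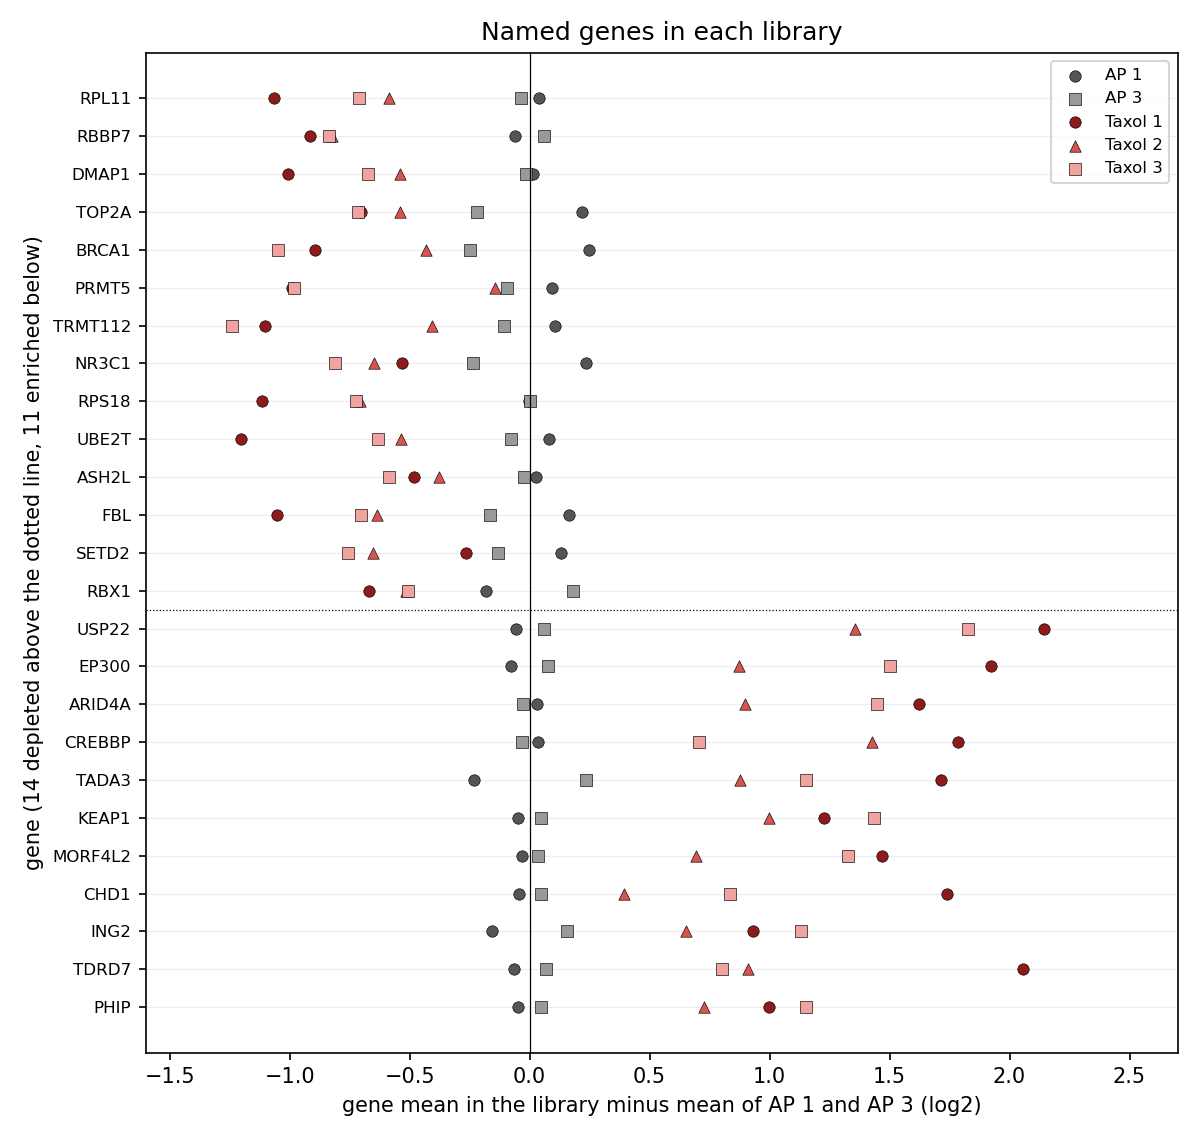
Gene means of 14 depleted and 11 enriched named genes in each library, minus the mean of AP 1 and AP 3 (log2). Grey markers are the AP libraries and red markers Taxol 1 to 3. These genes were chosen for having all 3 Taxol libraries on 1 side of both AP libraries, so that separation follows from the choice. Taxol 2 is often the nearest to the AP markers.

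Among the histone acetyltransferase lists, 1 of 18 genes was depleted in NuA4-TIP60, 2 of 13 in the KAT8 complexes and 1 of 12 in ATAC, and none of 19 in SAGA, 7 in MOZ-MORF or 7 in HBO1, against 4.62% of all genes. DMAP1, a subunit of the TIP60 acetyltransferase (NuA4) and the SRCAP remodeller, went from 8.66 and 8.63 to 7.63, 8.10 and 7.97 (-0.74 ± 0.20, RRA adjusted p = 0.00246), with 9 of 10 sgRNAs lower. It was the depleted member of 18 in NuA4-TIP60, whose median was -0.19, and KAT5, the catalytic subunit, stood at -0.44 ± 0.22 and ING3 at -0.36 ± 0.12 without passing (RRA adjusted p = 0.086 and 0.0884). Of 13 members of the KAT8 complexes MSL and NSL 2 were depleted, and the list median was 0.02. They were KAT8, which acetylates H4K16 (-0.61 ± 0.23, RRA adjusted p = 0.0202), and the NSL subunit KANSL3 (-0.29 ± 0.06, RRA adjusted p = 0.0413, limma adjusted p = 0.333). Both calls were lost whichever Taxol library was left out. Of 6 Elongator subunits, a complex that modifies tRNA, ELP4 passed (-0.43 ± 0.15, RRA adjusted p = 0.0296), the median was -0.25, and ELP5 stood lower at -0.62 ± 0.15 without passing (RRA adjusted p = 0.07). POLE3, a histone-fold protein of DNA polymerase epsilon and of the ATAC and ISWI complexes, differed by -0.62 ± 0.12 (RRA adjusted p = 0.0202).

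ASH2L and SETD2 were among the 16 depleted genes with the lowest RRA p, although their differences were smaller than most. ASH2L, a core subunit that every COMPASS/MLL enzyme needs for H3K4 methylation, went from 9.09 and 9.04 in AP to 8.59, 8.69 and 8.48 (-0.48 ± 0.09, RRA adjusted p = 0.0118). It was the depleted member of 21 in COMPASS and MLL, a share near the background, with a median of -0.08, and WDR82 and HCFC1 stood at -0.53 ± 0.17 and -0.56 ± 0.19 without passing (RRA adjusted p = 0.0732 and 0.0834). SETD2, the enzyme of H3K36 trimethylation, was at 7.73 and 7.47 in AP and at 7.34, 6.95 and 6.84 in Taxol (-0.56 ± 0.24, RRA adjusted p = 0.0149). Its Taxol 1 value lay only just under AP 3, its lowest sgRNA stood at -2.82, and the other 5 H3K36 methyltransferases did not pass. BAP1, the deubiquitinase of H2A, was the depleted member of 6 in its list (-0.70 ± 0.32, RRA adjusted p = 0.0194), with 6 of 10 sgRNAs lower. NR3C1 encodes the glucocorticoid receptor. The culture medium contained hydrocortisone, and a link between it and the level of NR3C1 sgRNAs was not tested. The gene mean of NR3C1 was 9.45 and 8.98 in AP and 8.68, 8.56 and 8.40 in Taxol (-0.66 ± 0.22, RRA adjusted p = 0.0118). The other 6 nuclear receptors and coactivators did not pass.

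USP22 was the most enriched gene. USP22 is the deubiquitinase of SAGA, a coactivator complex that acetylates H3 through its acetyltransferase module and removes ubiquitin from H2B through its deubiquitinase module. Its gene mean was 8.46 and 8.58 in AP and 10.66, 9.87 and 10.35 in Taxol. The difference was 1.78 ± 0.33, a 3.42-fold higher level (RRA adjusted p = 2.16e-07, limma adjusted p = 0.0135), and all 10 sgRNAs were higher, by 0.70 to 2.50. The limma call of USP22, unlike its RRA call, was lost without Taxol 1 and without Taxol 3. TADA3, an adaptor of the acetyltransferase module that is shared with the ATAC complex, was the other enriched SAGA gene, going from 8.76 and 9.23 to 10.71, 9.87 and 10.15 (1.25 ± 0.40, RRA adjusted p = 0.00641). An sgRNA to TADA3 was also the most abundant of the Taxol 1 library, of which it held 3.92%. Other SAGA genes stood high without passing: ATXN7 and ATXN7L3, which anchor and activate USP22, at 0.96 ± 0.59 and 0.93 ± 0.21 (RRA adjusted p = 0.17 and 0.107), and the core subunit SUPT7L at 0.90 ± 0.35 (RRA adjusted p = 0.0802). ENY2, the remaining partner of USP22 in the module and also part of an mRNA export complex, stood at -0.12 ± 0.13 with overlapping groups. Its RRA adjusted p for depletion was 0.0898, which did not pass. Over the 19 measured members of SAGA 2 were enriched and 0 depleted, against 1.41% and 4.62% of all genes. The median of 0.23 was near that of all genes. Among 12 ATAC members TADA3 was enriched and POLE3 depleted, with a median of 0.34. USP22 was the enriched gene of 12 USP deubiquitinases, whose median was 0.19.

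The paralogous acetyltransferases EP300 and CREBBP, which acetylate H3K27 at enhancers and many other proteins, were both enriched. EP300 went from 9.23 and 9.38 to 11.23, 10.18 and 10.80 (1.43 ± 0.44, RRA adjusted p = 0.000158). CREBBP went from 8.82 and 8.75 to 10.57, 10.21 and 9.49 (1.30 ± 0.45, RRA adjusted p = 0.000602). All 20 sgRNAs of the pair were higher. The library nearest to the start was Taxol 2 for EP300 and Taxol 3 for CREBBP.

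The SIN3 deacetylase complex held members on both sides. Of 17 measured, 2 were enriched and 2 depleted, against 1.41% and 4.62% of all genes. The depleted members were RBBP7 and RBBP4, and the median was 0.29. ARID4A, a chromatin-binding subunit that also binds the retinoblastoma protein, went from 8.56 and 8.50 to 10.15, 9.43 and 9.98 (1.32 ± 0.31, RRA adjusted p = 0.000464), with all 10 sgRNAs higher. ING2, whose PHD finger reads H3K4 trimethylation, went from 8.38 and 8.69 to 9.46, 9.18 and 9.66 (0.90 ± 0.23, RRA adjusted p = 0.0277). The ING2 call was lost whichever Taxol library was left out. SAP30 stood at 0.95 ± 0.23 without passing (RRA adjusted p = 0.0802). MORF4L2, an MRG-domain protein found in NuA4-TIP60, was enriched from 8.89 and 8.96 to 10.40, 9.62 and 10.26 (1.16 ± 0.34, RRA adjusted p = 0.0201), opposite in direction to DMAP1 of the same list.

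**Figure D4:**
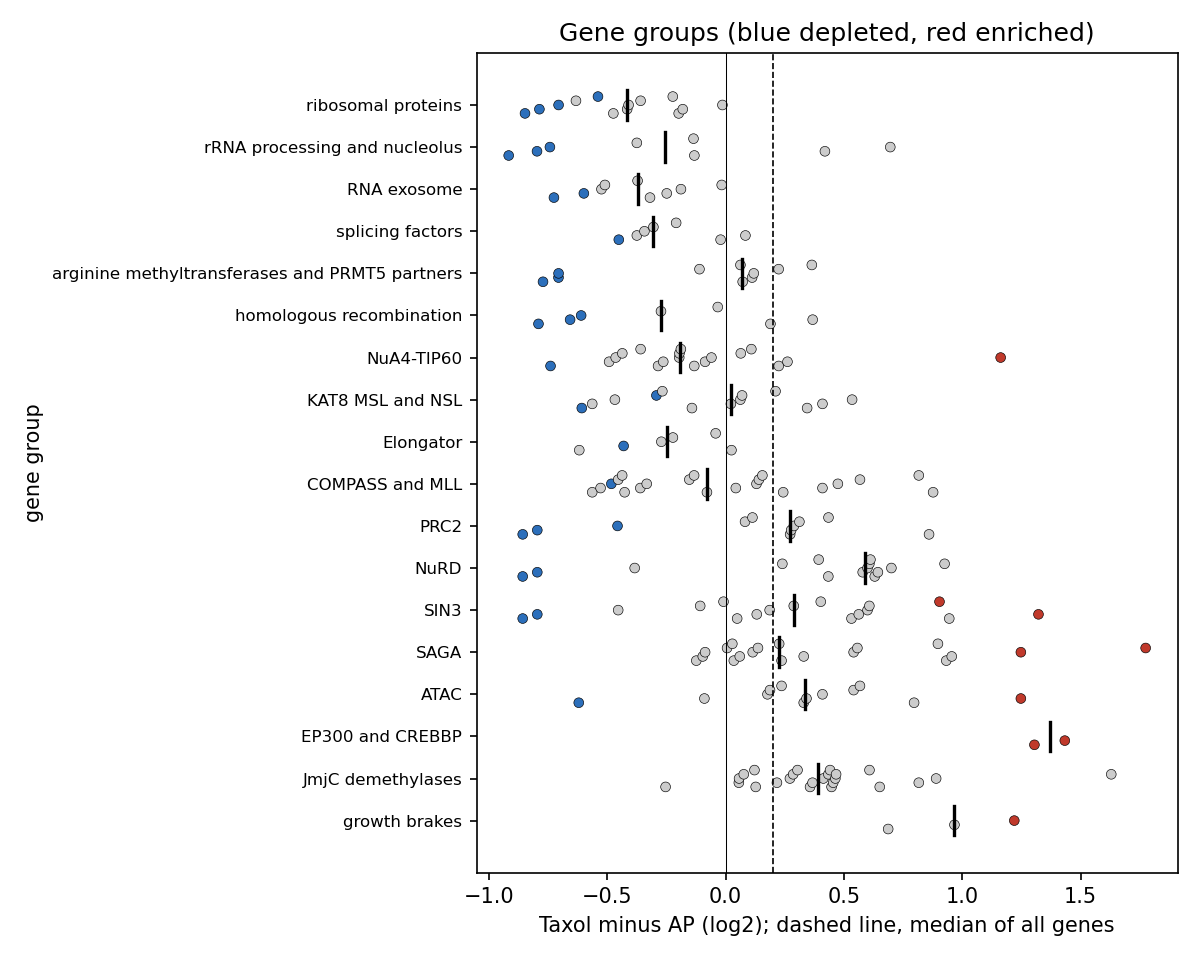
Taxol minus AP difference (log2) of every measured member of 18 gene groups, with a black bar at the median of the group and a dashed line at the median gene, 0.20. All 13 ribosomal proteins lie below 0 and below the median gene, EP300 and CREBBP lie above 1.3, and SIN3 has 2 depleted and 2 enriched members.

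KEAP1 is the adaptor through which the CUL3 ubiquitin ligase keeps the oxidative stress factor NRF2 low. It was enriched from 9.60 and 9.70 to 10.88, 10.65 and 11.09 (1.22 ± 0.18, RRA adjusted p = 0.0201), and all 10 sgRNAs were higher. RBX1, the RING subunit that most cullin ligases need, moved the other way, from 7.33 and 7.70 to 6.85, 7.00 and 7.01 (-0.57 ± 0.17, RRA adjusted p = 0.0149), with 1 sgRNA at 2.26. These were the called genes of 11 in the cullin ligase list, whose median was 0.46, and CUL5 stood at 1.08 ± 0.31 with all 10 sgRNAs higher without passing (RRA adjusted p = 0.606, limma adjusted p = 0.0744). In the list of growth brakes KEAP1 was the called gene of 3, and RB1, the retinoblastoma protein, stood at 0.97 ± 0.48 (RRA adjusted p = 0.0802).

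The remaining enriched genes came from different families. CHD1, a remodeller that follows transcribing polymerase, went from 9.29 and 9.38 to 11.07, 9.72 and 10.17 (0.99 ± 0.56, RRA adjusted p = 0.0248). The spread among its Taxol libraries was wide, although all lay above AP, and none of the other CHD proteins was enriched (1 of 10, median 0.45). TDRD7, a Tudor-domain protein of RNA granules, had a similar pattern, from 9.47 and 9.60 to 11.59, 10.45 and 10.34 (1.26 ± 0.57, RRA adjusted p = 0.0296). PHIP, a bromodomain and WD-repeat protein, went from 8.84 and 8.93 to 9.88, 9.61 and 10.04 (0.96 ± 0.18, RRA adjusted p = 0.0296). JMJD6, a JmjC-domain hydroxylase, had the second-highest difference of all genes without passing: 8.65 and 9.07 in AP against 11.03, 9.71 and 10.72 in Taxol (1.63 ± 0.59, RRA adjusted p = 0.0802), with all 10 sgRNAs higher. It passed with either other scaling, without Taxol 2, and when sgRNAs were ranked by their difference.

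Of the 48 gene lists, which overlap and cover 464 of the 779 genes, 26 held a call and 22 held none. Of the called genes 5 depleted and 2 enriched are in no list, and some, such as RBBP7, RBBP4, POLE3 and TADA3, count in more than 1. Among the larger of these, the median was 0.31 in 24 PRC1 genes, 0.39 in 24 JmjC demethylases, 0.02 in 22 SWI/SNF genes, -0.01 in 18 INO80 and SRCAP genes, 0.05 in 15 TFIID TAFs, 0.45 in 15 genes of DNA methylation and demethylation, and 0.29 in 13 PRDM genes. In PRC1 and the JmjC demethylases KDM2B, an H3K36 demethylase of a variant PRC1, stood at 0.89 ± 0.40 (RRA adjusted p = 0.135). MLLT1, a reader of acetylated H3 that works with DOT1L, stood at 1.03 ± 0.38 (RRA adjusted p = 0.0864), and the 4 genes of the DOT1L list had a median of 0.53. The others of these lists had medians of 0.36 (13 genes of H3K9 methylation and HP1), 0.41 (12 genes of HDAC3 to HDAC11 and NCOR), 0.18 (10 of LSD1-CoREST), 0.00 (9 of H2B ubiquitination and PAF1), 0.19 (9 mitotic kinases), 0.06 (7 of HBO1), -0.12 (7 cyclin-dependent kinases), 0.20 (4 sirtuins) and 0.38 (4 BET proteins). The ISWI list, in which POLE3 was depleted, had a median of 0.06 over 11 genes. Within MOZ-MORF, the acetyltransferase complex whose scaffold is BRPF1, 0 of 7 genes passed and the median was 0.30. BRPF1 stood at 8.77 and 8.96 in AP and at 9.23, 9.05 and 9.23 in Taxol (0.30 ± 0.11, limma adjusted p = 0.338). Its RRA adjusted p was 0.453 for depletion and 0.967 for enrichment. All Taxol values were above AP on the deposited scaling, its sgRNAs ran from -1.77 to 1.53, and it stood 0.10 above the median gene, which both other scalings move below 0 together with BRPF1. In DMSO relative to AP, BRPF1 stood at 0.41 ± 0.12. Its direct Taxol minus DMSO difference was -0.15 ± 0.09 and did not pass (RRA adjusted p = 0.968 for depletion, limma adjusted p = 0.909).

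ABCB1 exports Taxol from the cell and is the pump that verapamil blocks, and ABCG2 and ABCC1 are related exporters. The gene mean of ABCB1 was 8.25 and 8.60 in AP and 7.86, 8.27 and 8.22 in Taxol. Taxol 2 lay just above AP 1, so the groups overlapped, and the difference was -0.31 ± 0.23 (RRA adjusted p = 0.138, limma adjusted p = 0.359). Of its 10 sgRNAs 8 were lower, and 1 of the others stood at 1.51, with 3666 normalized counts in Taxol 3 against 456 and 408 in Taxol 1 and Taxol 2. Without Taxol 2 the difference was -0.38 and ABCB1 was called depleted (RRA adjusted p = 0.033), while without each other library it was not (RRA adjusted p of 0.234 to 1). ABCG2 stood at -0.04 ± 0.27 and ABCC1 at -0.01 ± 0.51, both with overlapping groups.

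The same genes were set beside the DMSO culture, which shares the AP libraries with the Taxol comparison, so that agreement between those differences is not independent. Each table was normalized separately, and only the direct Taxol minus DMSO contrast tests whether the cultures differed. The 16 named depleted genes ran from -0.92 to -0.48 in Taxol and from -1.17 to -0.23 in DMSO, and all were below 0 in both. PRMT5 was at -0.71 in Taxol and -1.17 ± 0.13 in DMSO, TRMT112 at -0.92 and -1.15 ± 0.17, and RPS18 at -0.85 and -1.11 ± 0.21. In DMSO relative to AP all of these passed by RRA (adjusted p = 0.000281, 0.00463 and 0.00463) and by limma (adjusted p = 0.0227 for each). RBBP7 was at -0.86 in Taxol and -0.37 ± 0.05 in DMSO, and its direct difference of -0.54 ± 0.05 did not pass (RRA adjusted p = 0.905, limma adjusted p = 0.64). None of the 16 passed in the direct contrast, in which they ran from -0.54 to 0.41 with 7 below 0 and 9 above (lowest RRA adjusted p 0.905 for depletion and 0.677 for enrichment, lowest limma adjusted p 0.64).

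Among the 11 enriched genes the DMSO differences ran from 0.12 to 1.36. KEAP1 was at 1.22 in Taxol and 1.36 ± 0.13 in DMSO, where it passed (RRA adjusted p = 4.64e-08), and its direct difference was -0.19 ± 0.17. CREBBP was at 1.30 and 1.03 ± 0.23, and in DMSO it passed by limma (adjusted p = 0.0227) but not by RRA (adjusted p = 0.0891). EP300, by contrast, was at 1.43 and 0.54 ± 0.26, TADA3 at 1.25 and 0.34 ± 0.19, and CHD1 at 0.99 and 0.12 ± 0.12. The direct differences of the last 3 were 0.85 ± 0.42, 0.86 ± 0.30 and 0.82 ± 0.49, and none passed on the deposited scaling (RRA adjusted p = 0.155, 0.072 and 0.1). TADA3 passed in the direct contrast with either other scaling. USP22 was at 1.78 in Taxol and 0.19 ± 0.19 in DMSO, and it alone of the enriched genes passed the direct contrast, at 1.54 ± 0.31 by RRA (adjusted p = 1.36e-05) and by limma (adjusted p = 0.000405). On the depleted side 2 genes passed it by RRA and neither by limma. ABCB1 was at -0.31 in Taxol and 0.52 ± 0.38 in DMSO, a direct difference of -0.87 ± 0.33 (RRA adjusted p = 0.0309, limma adjusted p = 0.193). GATAD1, a zinc-finger protein that binds H3K4-methylated chromatin as part of a deacetylase complex, was depleted in Taxol relative to the start, from 9.27 and 9.16 to 8.68, 8.76 and 8.72 (-0.50 ± 0.06, RRA adjusted p = 0.0384). In DMSO it stood at 0.21 ± 0.43, and the direct difference was -0.75 ± 0.34 (RRA adjusted p = 0.0309, limma adjusted p = 0.391).

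**Figure D5:**
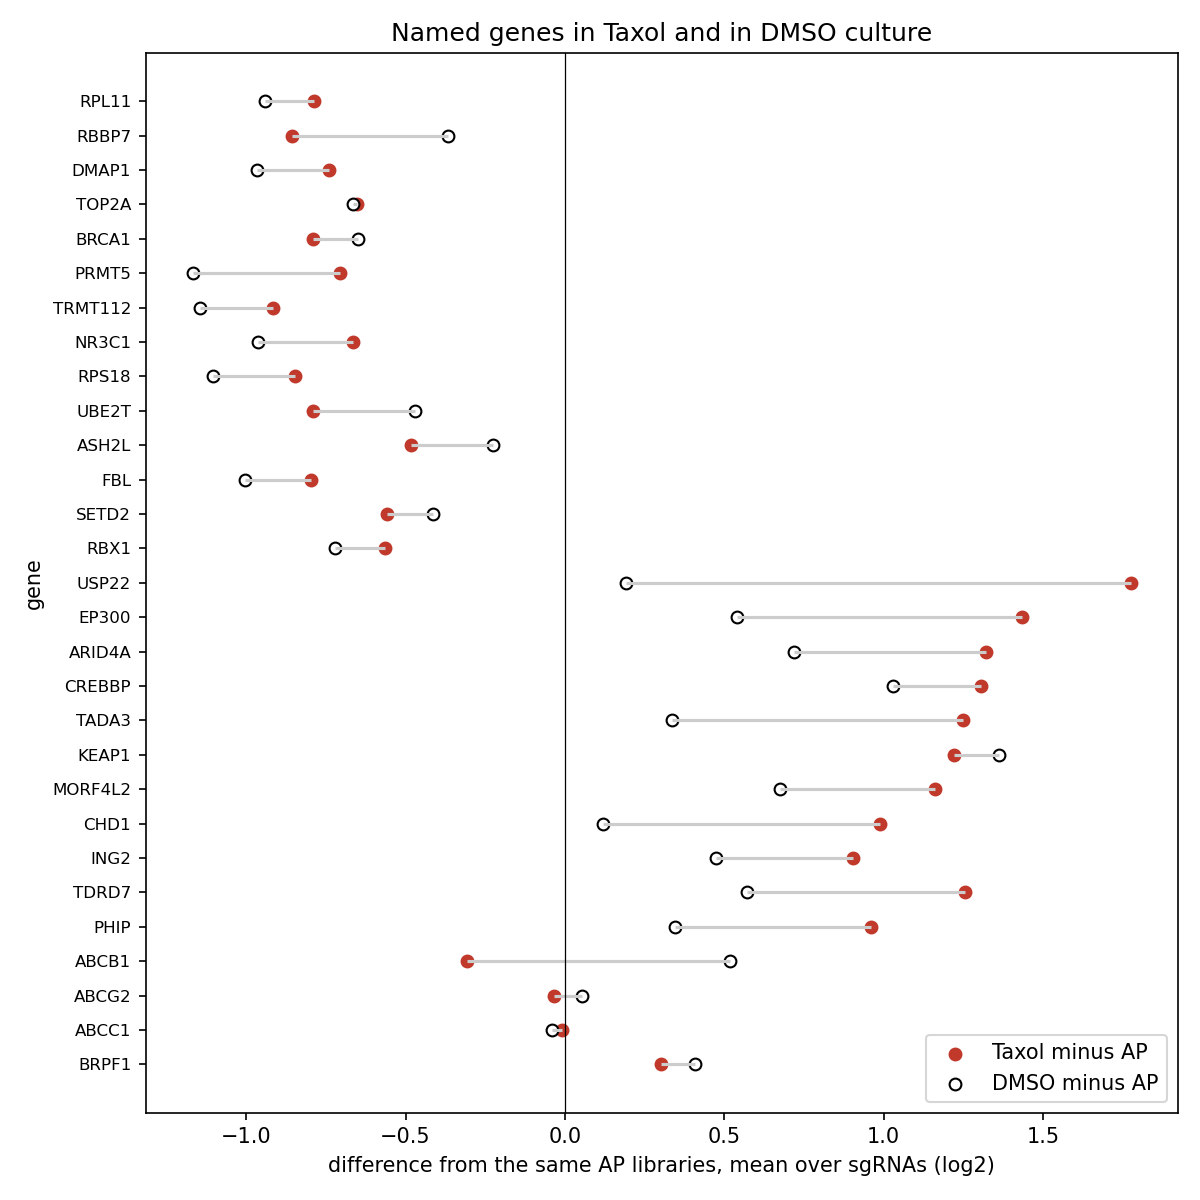
Difference from the same AP libraries (log2) of 29 named genes in Taxol culture (red) and in DMSO culture (open). The depleted genes lie below 0 in both cultures, KEAP1 and CREBBP lie above 1 in both, and the markers are farthest apart for USP22, at 1.78 and 0.19, followed by TADA3, EP300, CHD1 and ABCB1.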

How the data were processed

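The authors counted sgRNAs from genomic DNA amplicons with MAGeCK 0.5.8 (per the submitters' processing notes) and deposited tables of normalized counts, 1 for each comparison, in which 1 field holds all libraries of a group. Counting options are not given in the sources used here. The AP field has 3 values, but GEO lists only AP 1 and AP 3, so the first and the third were used and 2 value columns were left out. That assignment rests on the numbers in the table's name. The deposited fold changes, scores, p-values and false discovery rates of the authors were not used, and 1 row that names no gene was dropped. The joined, normalized values allowed no count model. The reads in the text were recovered from the smallest step of each library, where at least 98.98% of values came out whole within 0.1 read. sgRNA values that rest on few reads are the least precise: in Taxol 3, 315 sgRNAs had 30 reads or fewer, against 15 in AP 1.

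Values were taken as log2(normalized count + 1) with no filter on low counts. sgRNAs were ranked by the moderated statistic of limma 3.58.1 (R 4.3.3, eBayes with trend) and aggregated per gene by RRA over the lowest or highest 25% of ranks. The p was exact under uniform ranks and one-sided in each direction, with Benjamini-Hochberg adjustment over all genes with at least 3 sgRNAs, and genes were called at 0.05. Limma on gene means, two-sided, was run beside it. Scripts were tested on simulated data. Named genes were the called genes whose Taxol libraries all lay on 1 side of AP, up to 16 each way by p, with ABCB1, ABCG2, ABCC1 and BRPF1, and up to 4 members of a list by p. IMP3, PPP4C, GATAD1, SFPQ, ATXN7, ENY2 and SAP30 were named after their values were seen. Members and lists were chosen with earlier results of these data known. Alternatives were another pseudocount, filter, scaling, summary, ranking, rank limit and variance model, a replicate block, and each library left out. Spacer sequences of the sgRNAs were not used here. Of the 16 depleted genes chosen by the rule, 2 are counted but not reported here.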

Additional observations from a re-analysis of the deposited data

Results flagged for a closer look

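Among the named and called genes, 3 differed between Taxol and DMSO culture in the direct contrast, which tests the difference between their changes from the shared AP libraries. USP22 was higher in Taxol by 1.54 on the log2 scale by RRA, and also by limma. ABCB1 was lower in Taxol than in DMSO, at -0.87, and GATAD1 at -0.75, both by RRA and neither by limma. USP22 kept its call with every library of either culture left out, while ABCB1 lost it without DMSO 1, DMSO 2, Taxol 1 or Taxol 3. No group held 4 or more libraries, so no library was tested as an outlier.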

How the results depend on the processing

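Of the alternatives to RRA, limma on gene means gave 0 depleted genes and 1 enriched gene in place of 36 and 11. A rank limit of 10% gave 11 depleted genes, and the replicate block gave 4 enriched genes, 3 of them among the 11. With each library left out in turn, 2 to 30 genes were depleted and 1 to 8 enriched. Pseudocount, filter on low counts, scaling, variance trend and ranking by difference kept both counts within 1.5 times. By limma on gene means, 0 genes lower and 1 higher became 150 and 4 when centred on non-targeting sgRNAs, 49 and 2 with equal totals, 16 and 48 with the replicate block (in which Taxol 2, alone with its number, carries no information), and 2 and 3 with the median over sgRNAs. Without the variance trend 5 were higher, and with each library left out 0 to 1 were lower and 0 to 8 higher. The non-targeting difference ran from 0.32 to 0.70 with a library left out. The direct contrast with DMSO called 2 of 31 named genes, 1 by limma and 1 to 2 with a library left out, and DMSO relative to AP called 8, and 8 to 10 with a library left out, alternatives chosen after seeing the data. ABCB1 and JMJD6, not among the 36 and 11, were called under the replicate block (RRA adjusted p = 0.044 and 0.0212). Signs turned only for genes not called: ABCG2 was at 0.10 under the replicate block and ran from -0.28 to 0.21 with a library left out, ABCC1 ran from -0.24 to 0.32, and with non-targeting centring and equal totals BRPF1 was at -0.22 and -0.44 and TOP2B at -0.22 and -0.43, scalings that lower all genes and leave both above the median gene. AP and Taxol share replicate numbers 1 and 3, but the sgRNA differences of AP 1 from AP 3 did not follow those of Taxol 1 from Taxol 3 (r = -0.003 over 7855 sgRNAs), so no pairing was used. Leaving out AP 3 ended 34 of the 36 depleted calls, and the cause of the differences between alternatives was not tested.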
